A study of Mus musculus with 5 samples.

Results

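The nuclear-encoded subunits of the oxidative phosphorylation machinery were examined in mouse retina. They were chosen by gene symbol: protein-coding genes whose symbols begin with Ndufa, Ndufb, Ndufc, Ndufs or Ndufv, the succinate dehydrogenase genes Sdha to Sdhd, the Uqcr genes, the Cox4 to Cox8 subunits and the Atp5 genes. The rule found 85 of the 43432 genes in the deposited table and left out 11 pseudogenes whose symbols match it. By complex, 36 belong to complex I, 4 to complex II, 8 to complex III, 20 to complex IV and 17 to complex V. Ndufa4 and Ndufa4l2 were counted with complex IV, where the Ndufa4 protein is found in the assembled enzyme, and Atp5s was taken in by its symbol although it is not a core subunit of the synthase. The rule does not reach cytochrome c1 (Cyc1) or the subunits encoded by mitochondrial DNA, which are described beside the members further on.

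Oxidative phosphorylation takes place in the inner mitochondrial membrane. Complexes I and II pass electrons from NADH and succinate to coenzyme Q, complex III hands them to cytochrome c, and complex IV passes them to oxygen. Complexes I, III and IV pump protons as they do so, and complex V, the ATP synthase, uses the returning protons to make ATP. Most subunits are encoded in the nucleus, and photoreceptors of the retina pack many mitochondria into their inner segments.

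Polyadenylated RNA was sequenced from retinas taken from pups on postnatal day 7, in a study whose title concerns Mettl14 and Mettl3, partners in the enzyme that places N6-methyladenosine on RNA. There were 2 libraries labelled Mettl14 cko, called cko a and cko b here, and 3 labelled as controls, called control a, b and c. The letters cko commonly stand for conditional knockout, but the labels name no deleted allele, Cre driver, strain or littermate status for either group. The name of the deposited table includes Six3, a gene of the developing eye field, and the letters M3M14, and the labels explain neither. They also do not say whether each library came from its own animal. The p-values therefore measure only the spread between these libraries, which may in part be technical.

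Mettl14 itself was not lower in the libraries labelled cko. Its abundance, in CPM (reads per 1e+06 reads of the scaled library), was 55.6 CPM in cko a and 44.8 CPM in cko b, against 41.5, 46.7 and 38.7 CPM in controls a, b and c (log2 fold change 0.25, SE 0.20, edgeR adjusted p = 0.64). The 2 groups overlapped, and since the deleted part of the gene is not given in the labels, a whole-gene count does not check the label. Mettl3 was at 65.6 and 52.0 CPM in cko a and b, against 72.4, 71.3 and 66.0 CPM in controls a, b and c (adjusted p = 0.615). Libraries held 25912136 and 26513127 counted reads in the cko group and 24315693 to 27100918 in the controls. Reads of Xist and of Y-linked genes placed cko a and controls a and b with female tissue, and cko b and control c with male tissue. Over all 17039 genes that passed the filter on low counts, 17 were called at an adjusted p under 0.05 (0.0998%), 1 higher and 16 lower in the cko libraries.

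Transcripts used as markers of other tissues differed in level between the libraries. Of 8 lens genes tested, 6 were called lower, and the summed level of the 9 lens markers was 28.3 to 82.7 CPM in the cko libraries, against 742 to 1628 CPM in the controls. Erythroid markers summed to 40.9 to 127 CPM in the cko libraries and 170 to 463 CPM in the controls. Markers of retinal pigment epithelium summed to 424 to 504 CPM in the cko libraries and 677 to 923 CPM in the controls. The largest part of that sum was Rlbp1, which is also listed as a Muller glia marker. Rlbp1 was at 329 and 269 CPM in cko a and b, against 471, 424 and 406 CPM in controls a, b and c. Skeletal muscle markers summed to 10.9 to 12.4 CPM in the cko libraries and 18.02 to 54.9 CPM in the controls, with 1 of the 10 muscle markers (Tnnc2) at 0 in every library. In all 4 lists control c was the highest library. The 10 rod markers, which define the largest cell class of the mouse retina, were all detected and summed to 18431 and 13033 CPM in cko a and b, against 18402, 15378 and 19738 CPM in controls a, b and c. Muller glia markers, Rlbp1 among them, summed to 1241 and 1212 CPM in cko a and b, against 1199, 1310 and 954 CPM in controls a, b and c. Whether the amount of any of these tissues differed between the libraries was not tested. The part of these tissues and cell types in the values given below was not tested either.

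Of the 85 members, 83 passed the filter on low counts, and most of them had lower values in the libraries labelled cko. The log2 fold change was below 0 for 77 of the 83 (92.8%), against 50.9% of all genes tested, and the median was -0.37, against -0.01 over all genes tested. No member was called at an adjusted p under 0.05, against 0.0998% of all genes, and the lowest adjusted p among the members was 0.433. At an unadjusted p under 0.05, 13 members (15.7%) were lower, against 5.36% of all genes, and 0 were higher, against 5.45% of all genes. Both cko libraries lay below all 3 controls for 10 members (12%), against 13.7% of all genes, and both lay above them for 0 members, against 15.8% of all genes. The share of members without overlap on the lower side was thus near the background. In bulk retina, fewer cells of a mitochondria-rich type and less RNA per cell cannot be told apart.

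The members shared their variation from library to library, also among the controls. Measured as the difference in log2 CPM from the mean of the 3 controls, the median member stood at -0.20 in cko a and -0.47 in cko b, against 0.05, -0.36 and 0.31 in controls a, b and c. Control b therefore lay between the 2 cko libraries, and the SD of the 3 control medians was 0.34, close to the size of the group difference. The 83 members together took 1.66% and 1.33% of the scaled library in cko a and b, against 1.93%, 1.54% and 2.27% in controls a, b and c. The lowest of the 5 libraries was cko b for 60 members and control b for 16, and the highest was control c for 73.

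**Figure D1:**
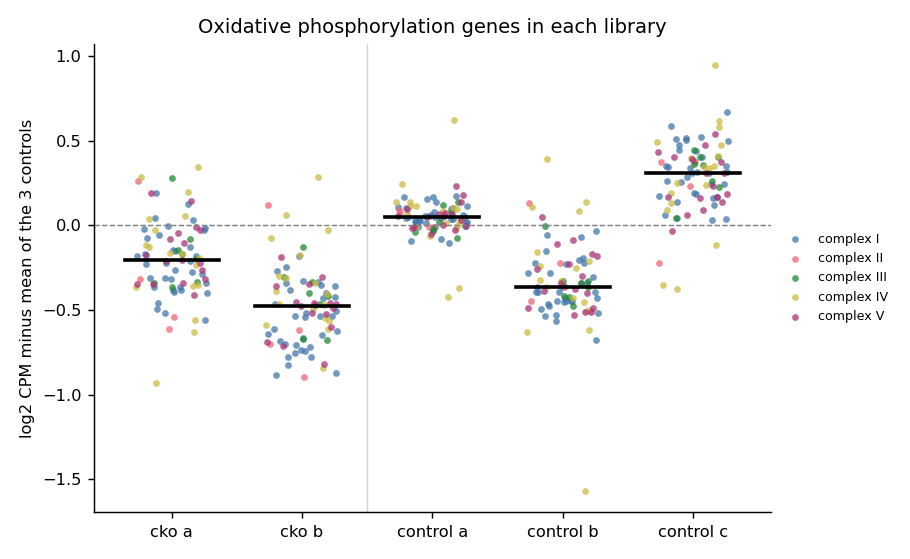
Each point is 1 of the 83 members tested, coloured by complex; the y axis is its log2 CPM minus the mean of the 3 controls, for cko a, cko b and controls a, b and c from left to right, and black bars are library medians. The medians of cko a (-0.20) and cko b (-0.47) lie on either side of that of control b (-0.36), and control c (0.31) is the highest.

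Comparing libraries in pairs gave the same order. In cko a, 72 of 83 members were lower than in control a (median log2 difference -0.29) and 79 were lower than in control c (-0.51), but 11 were lower than in control b (0.16). In cko b, 79 were lower than in control a (-0.57), 65 than in control b (-0.17) and 80 than in control c (-0.78). Within a group, 78 members were lower in cko b than in cko a (-0.32), and 78 were lower in control b than in control c (-0.69). Among the libraries read as female, cko a was below control a and above control b at the median; among those read as male, cko b was below control c. Without control b, the median over members was -0.49, 79 were below 0 and 45 were lower at an unadjusted p under 0.05 (54.2%), against 8.99% of all genes in that fit. Without cko b, the median was -0.23 and 2 members were lower at that threshold (2.41%), against 9.1% of all genes. Without control a, 6 were lower (7.32%), against 2.64% of all genes. Without control c, the median was -0.24 and 3 were lower (3.66%), against 3.54% of all genes. Without cko a, the median was -0.52 and 80 members were below 0. That fit and the one without cko b each rest on 1 cko library, so no share at this threshold is given for them. Among the fits whose share is given, the members' share was above the background without control a or control b. It was near the background without control c.

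Complex II, succinate dehydrogenase, had the lowest median of the 5 complexes (-0.58 over 4 genes) and split between its subunits. Sdhb (ENSMUSG00000009863, chr4:140961203-140979193, plus strand, GRCm38), which carries the iron-sulphur clusters, was at 174 and 136 CPM in cko a and b, against 252, 197 and 329 CPM in controls a, b and c. Both cko libraries lay below every control (log2 fold change -0.74, SE 0.24, 95% interval -1.28 to -0.20, adjusted p = 0.433). Sdhc (ENSMUSG00000058076, chr1:171127165-171150603, minus strand), a membrane anchor, was at 67.9 and 67.4 CPM in cko a and b, against 103, 88.8 and 122 CPM in controls a, b and c. The cko libraries were nearly equal and the groups did not overlap (-0.63, SE 0.20, 95% interval -1.07 to -0.19, adjusted p = 0.433). Sdhd (chr9:50596357-50603812, minus strand), the other anchor, was at 205 and 157 CPM in cko a and b, against 268, 187 and 330 CPM in controls a, b and c. Its cko a value exceeded that of control b, so the groups overlapped (-0.53, SE 0.25, adjusted p = 0.47).

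Sdha (ENSMUSG00000021577, chr13:74322254-74350280, minus strand), the flavoprotein that oxidizes succinate, lay on the other side. It was at 270 and 244 CPM in cko a and b, against 240, 246 and 193 CPM in controls a, b and c. The groups overlapped (log2 fold change 0.19, SE 0.20, 95% interval -0.25 to 0.62, adjusted p = 0.718). Control c, the library with the highest value of Sdhb, Sdhc and Sdhd, had the lowest of Sdha. Leaving out each library in turn kept the signs of all 4 genes, with log2 values of -0.93 to -0.55 for Sdhb, -0.73 to -0.52 for Sdhc, -0.74 to -0.36 for Sdhd and 0.06 to 0.26 for Sdha. Whether the fold changes of the subunits differ from each other was not tested.

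**Figure D2:**
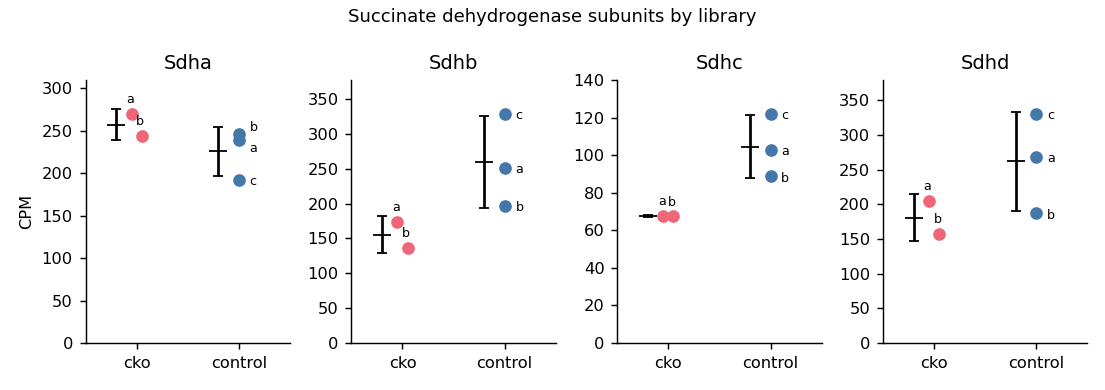
Each panel gives 1 subunit of succinate dehydrogenase; the y axis is CPM, points are the libraries labelled by letter (cko left, control right), and bars are the mean and SD (n = 2 cko, n = 3 control). Sdhb and Sdhc show no overlap, Sdhd overlaps through control b (187 CPM), and Sdha is highest in cko a (270 CPM).

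The promoters of 3 of these subunits are shown because the subunits did not share 1 direction and because 2 regulators long known to act on respiratory genes, NRF1 and the ETS factor GABP, have recognizable binding letters. The sequences are from RefSeq on GRCm38.p6, 5′ to 3′ on the strand of the gene, from 250 bases before to 50 after the start; Sdhc is named only. Capitals mark matches on either strand to GCANGCGC (NRF1) or CCGGAAG (ETS, CTTCCGG on the other strand).

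Sdha (chr13:74350191-74350490, minus strand): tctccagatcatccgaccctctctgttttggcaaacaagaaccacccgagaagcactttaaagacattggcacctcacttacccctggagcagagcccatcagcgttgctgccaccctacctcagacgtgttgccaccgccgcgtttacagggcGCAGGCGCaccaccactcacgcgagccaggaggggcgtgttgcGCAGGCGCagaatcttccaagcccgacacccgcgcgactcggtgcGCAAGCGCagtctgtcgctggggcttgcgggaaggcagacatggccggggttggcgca

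Sdhb (chr4:140961021-140961320, plus strand): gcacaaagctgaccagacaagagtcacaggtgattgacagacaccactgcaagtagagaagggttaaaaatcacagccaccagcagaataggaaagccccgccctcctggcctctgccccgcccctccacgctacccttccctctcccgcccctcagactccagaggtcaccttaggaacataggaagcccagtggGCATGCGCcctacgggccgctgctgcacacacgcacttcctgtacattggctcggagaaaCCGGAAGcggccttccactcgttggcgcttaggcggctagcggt

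Sdhd (chr9:50603800-50604099, minus strand): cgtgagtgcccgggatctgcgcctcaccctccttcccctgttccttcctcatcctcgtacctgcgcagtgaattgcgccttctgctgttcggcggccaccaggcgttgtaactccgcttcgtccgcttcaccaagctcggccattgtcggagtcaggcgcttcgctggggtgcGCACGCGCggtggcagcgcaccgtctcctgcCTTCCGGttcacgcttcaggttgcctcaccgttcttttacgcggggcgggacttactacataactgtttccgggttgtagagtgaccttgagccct

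The Sdha window held 3 NRF1 matches and no ETS match, and the windows of Sdhb and Sdhd held 1 of each. A match is a stretch of letters and was not measured as bound. Windows were matched for 67 of the 85 members, 72 in all. The NRF1 letters were present in 27 of the 72 windows (37.5%), against 9.61% of all 32851 windows of the same length, the ETS letters in 16 (22.2%), against 8.86%, and AAGATGGC, the letters of YY1, another factor known at such promoters, in 9 (12.5%), against 2.75%. No match of 1 motif shared bases with a match of another in the member windows. Member windows had a median GC content of 57.3%, against 52.7% over all windows, and the part of base composition in these shares was not tested. The median log2 fold change of the tested members was -0.41 with the NRF1 letters (n = 26) and -0.32 without them (n = 40), -0.38 with the ETS letters (n = 16) and -0.35 without (n = 50), and -0.30 with the YY1 letters (n = 9) and -0.37 without (n = 57).

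All 36 complex I genes had log2 fold changes below 0, from -0.81 to -0.05, with a median of -0.42. At an unadjusted edgeR p under 0.05, 8 were lower (22.2%, against 5.36% of all genes). Both cko libraries lay below all controls for 3 of the 36, Ndufa8, Ndufb11 and Ndufv1. That was 8.33%, against 13.7% of all genes. Ndufv1 (ENSMUSG00000037916, chr19:4007384-4012806, minus strand), which binds NADH and the flavin, was at 270 and 208 CPM in cko a and b, against 334, 285 and 364 CPM in controls a, b and c. The groups were separate (-0.46, SE 0.21, 95% interval -0.92 to 0.01, adjusted p = 0.464). Its neighbour in the NADH module, Ndufv2, averaged 156 ± 27.0 CPM in the cko libraries and 235 ± 81.4 CPM in the controls (SD, n = 2 cko and n = 3 control, as for all means below; log2 -0.59, adjusted p = 0.464), with cko a above control b. Ndufs1, which carries most iron-sulphur clusters of the same module, was at 207 and 150 CPM in cko a and b, against 176, 165 and 235 CPM in controls a, b and c, and overlapped fully (-0.10, SE 0.23, adjusted p = 0.877).

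Other subunits on the path of electrons to coenzyme Q, Ndufs8, Ndufs7 and Ndufs3, also overlapped between groups. Ndufs8 averaged 104 ± 19.97 CPM in the cko libraries and 158 ± 45.2 CPM in the controls (-0.61, adjusted p = 0.443). Ndufs7 averaged 191 ± 54.4 CPM in the cko libraries and 235 ± 31.8 CPM in the controls (-0.30, adjusted p = 0.613). For Ndufs3 the means were 127 ± 18.1 CPM in the cko libraries and 136 ± 13.4 CPM in the controls (-0.10, adjusted p = 0.856). In each of these 3 genes, cko a was higher than control b.

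Accessory subunits of the membrane arm ranged widely, from Ndufc2 (-0.81) and Ndufb11 (-0.70) to Ndufb10 (-0.19), Ndufb2 (-0.12) and Ndufb8 (-0.05). Apart from Ndufb11, these were chosen after their values were seen. Ndufb11 (ENSMUSG00000031059, chrX:20615326-20617619, minus strand), the complex I member with the smallest p, was at 208 and 165 CPM in cko a and b, against 291, 212 and 406 CPM in controls a, b and c. Both cko values were below every control, though cko a and control b were close (-0.70, SE 0.27, 95% interval -1.29 to -0.11, adjusted p = 0.439). Ndufc2 (chr7:97400003-97407802, plus strand), the lowest of complex I, was at 149 and 120 CPM in cko a and b, against 221, 137 and 348 CPM in controls a, b and c. It overlapped through control b (-0.81, SE 0.33, adjusted p = 0.443). With no filter on low counts, Ndufc2 was called lower at an adjusted p of 0.0396, the 1 member called under any setting, in a fit that called 0.981% of all genes.

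**Figure D3:**
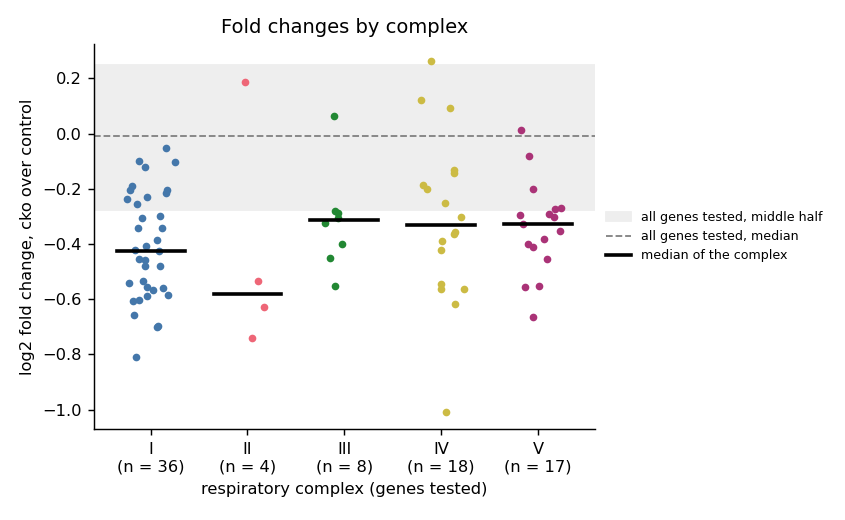
Each point is a tested member, placed by complex on the x axis and by its log2 fold change of cko over control on the y axis; black bars are medians per complex, the dashed line is the median of all genes tested and the grey band their interquartile range. Complex I lies wholly below 0, and the medians run from -0.58 (complex II) to -0.31 (complex III).

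The medians of the complexes moved when a library was left out. They ranged from -0.58 to -0.25 for complex I, -0.73 to -0.44 for complex II, -0.49 to -0.21 for complex III, -0.43 to -0.18 for complex IV and -0.51 to -0.21 for complex V. The values nearest 0 came without cko b for complexes I and V and without control c for complexes II, III and IV. Those farthest from 0 came without cko a for complexes I, IV and V and without control b for complexes II and III. Complex II had the lowest median in each of these 5 fits. With the trend on length and GC described further on removed, the medians were -0.54 for complex II, -0.29 for complexes I and V, -0.23 for complex III and -0.14 for complex IV.

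Complex III had 7 of 8 genes below 0, with a median of -0.31. At an unadjusted edgeR p under 0.05 it had 0 genes, against 5.36% of all genes lower and 5.45% higher. Uqcrc1 (ENSMUSG00000025651, chr9:108936633-108949623, plus strand), a core protein related to mitochondrial processing peptidases, was at 102 and 105 CPM in cko a and b, against 126, 129 and 133 CPM in controls a, b and c. It was the 1 complex III gene without overlap (12.5%, against 13.7% of all genes lower without overlap). It varied little within either group (-0.32, SE 0.18, adjusted p = 0.507). Its partner Uqcrc2 averaged 269 ± 62.6 CPM in the cko libraries and 368 ± 97.8 CPM in the controls, with overlap (-0.45, adjusted p = 0.517). Uqcrfs1, the Rieske iron-sulphur protein that takes electrons from coenzyme Q, was at 184 and 139 CPM in cko a and b, against 148, 121 and 195 CPM in controls a, b and c. It was the only complex III gene with a value above 0 (0.06, SE 0.24, adjusted p = 0.931). Uqcrh, the hinge protein next to cytochrome c1, averaged 154 ± 23.0 CPM in the cko libraries and 227 ± 67.8 CPM in the controls (-0.55, adjusted p = 0.464). Uqcr11, a small accessory subunit, averaged 115 ± 4.54 CPM in the cko libraries and 151 ± 31.3 CPM in the controls (-0.40, adjusted p = 0.501).

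Complex IV, cytochrome c oxidase, has paired isoforms for several nuclear subunits, and the common isoforms had the higher levels. Of its 18 genes tested, 15 were below 0, with a median of -0.33. At an unadjusted edgeR p under 0.05, 2 were lower (11.1%, against 5.36% of all genes). Cox4i1, the general form of subunit 4, was at 599 and 495 CPM in cko a and b, against 678, 581 and 691 CPM in controls a, b and c (-0.25, SE 0.22, adjusted p = 0.657). Cox4i2 (ENSMUSG00000009876, chr2:152754173-152765037, plus strand), the form known from lung and vascular mural cells, was at 8.39 and 8.43 CPM in cko a and b, against 12.2, 13.6 and 11.4 CPM in controls a, b and c. Cox4i1 overlapped through cko a and control b, whereas the groups were separate for Cox4i2 (-0.56, SE 0.23, 95% interval -1.06 to -0.06, adjusted p = 0.443). Cox4i2 was the only complex IV gene without overlap (5.56%, against 13.7% of all genes lower without overlap). Vascular markers moved beside Cox4i2 without 1 direction: 4 of the 8 had log2 fold changes below 0, their summed level was 328 to 377 CPM in the cko libraries and 160 to 331 CPM in the controls, and most of that sum was the endothelial receptor Kdr. Without Kdr the sum was 95.9 and 59.8 CPM in cko a and b, against 81.6, 70.9 and 93.1 CPM in controls a, b and c. Of the 4 pericyte genes, Pdgfrb was at -0.85, Rgs5 at -0.12, Cspg4 at -0.07 and Kcnj8 at 0.36 (log2 fold changes). None of the 8 was at 0 in every library, and their part in the Cox4i2 values was not tested.

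The other general isoforms of complex IV overlapped between groups. Cox8a, the most abundant complex IV transcript per kb, was at 522 and 417 CPM in cko a and b, against 624, 436 and 746 CPM in controls a, b and c (-0.36, SE 0.26, adjusted p = 0.595). Cox6a1 averaged 353 ± 58.2 CPM in the cko libraries and 387 ± 53.8 CPM in the controls (-0.13, adjusted p = 0.83). Cox6b1 averaged 202 ± 33.3 CPM in the cko libraries and 249 ± 45.8 CPM in the controls (-0.30, adjusted p = 0.598). In Cox8a, Cox6a1 and Cox6b1 alike, control b lay between cko b and cko a. Cox7a2 averaged 168 ± 30.1 CPM in the cko libraries and 226 ± 74.4 CPM in the controls (-0.42, adjusted p = 0.556), and Cox7b 109 ± 15.2 CPM in the cko libraries and 124 ± 26.2 CPM in the controls (-0.19, adjusted p = 0.749). Ndufa4 averaged 267 ± 22.6 CPM in the cko libraries and 344 ± 105 CPM in the controls (-0.37, adjusted p = 0.59). Its paralogue Ndufa4l2, a hypoxia-responsive gene also known from mural cells, was at 13.4 and 26.7 CPM in cko a and b, against 25.4, 33.6 and 19.7 CPM in controls a, b and c. The 2 cko libraries differed from each other about as much as the controls did (-0.39, SE 0.32, adjusted p = 0.641).

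Isoforms typical of striated muscle, and all but 1 of those typical of testis, had few reads. The muscle form Cox6a2 had 7 and 9 reads in cko a and b, against 20, 3 and 22 reads in controls a, b and c, and the lowest log2 fold change of all members (-1.01, SE 0.75, 95% interval -2.65 to 0.64, adjusted p = 0.602). Control b was the lowest library, and the muscle markers given above were also lower in the cko libraries, a relation that was not tested. The muscle form Cox8b had 10 and 12 reads in cko a and b, against 6, 10 and 10 reads in controls a, b and c, and the highest log2 fold change of all members (0.26, SE 0.54, adjusted p = 0.865). The muscle form Cox7a1 had 33 and 28 reads in cko a and b, against 20, 24 and 35 reads in controls a, b and c (0.12, SE 0.43, adjusted p = 0.925). The extremes of the fold changes thus belonged to genes with few reads, whose intervals were the widest. The testis form Cox6b2, with 103 to 182 reads a library, was at 7.13 and 5.54 CPM in cko a and b, against 6.93, 6.30 and 4.55 CPM in controls a, b and c (0.09, SE 0.28, adjusted p = 0.912). The remaining testis forms were not tested: Cox7b2 had 0 and 3 reads in cko a and b, against 0, 1 and 1 in controls a, b and c, and Cox8c had 2 and 0 reads in cko a and b, against 0 in all 3 controls.

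Complex V had 16 of 17 genes below 0, with a median of -0.33. At an unadjusted edgeR p under 0.05, 1 was lower (5.88%, against 5.36% of all genes). Atp5b (ENSMUSG00000025393, chr10:128083273-128090391, plus strand), the catalytic beta subunit, was at 1924 and 1552 CPM in cko a and b, against 2219, 2085 and 2359 CPM in controls a, b and c. Both cko libraries were below all controls (-0.35, SE 0.24, 95% interval -0.88 to 0.17, adjusted p = 0.574). Atp5a1, the alpha subunit that alternates with beta in the head of the enzyme, was at 1386 and 1068 CPM in cko a and b, against 1200.4, 1259 and 1189 CPM in controls a, b and c. The cko libraries lay on either side of the controls (0.01, SE 0.23, 95% interval -0.49 to 0.51, adjusted p = 0.988). Atp5c1, the gamma subunit that forms the rotating stalk, was at 389 and 293 CPM in cko a and b, against 508, 362 and 752 CPM in controls a, b and c. It had the lowest log2 fold change of complex V, with cko a above control b (-0.66, SE 0.30, 95% interval -1.32 to -0.01, adjusted p = 0.458).

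The 3 genes for the proton-carrying subunit c, which encode the same mature protein, all had values below 0. Atp5g1 averaged 103 ± 28.3 CPM in the cko libraries and 126 ± 13.2 CPM in the controls (-0.29, adjusted p = 0.603). Atp5g2 was at 195 and 164 CPM in cko a and b, against 232, 208 and 235 CPM in controls a, b and c, without overlap (-0.33, SE 0.19, adjusted p = 0.524). Atp5g3 averaged 224 ± 32.8 CPM in the cko libraries and 257 ± 34.7 CPM in the controls, with overlap (-0.20, adjusted p = 0.713). Atp5d, the delta subunit of the central stalk, was the third complex V gene without overlap. It was at 79.8 and 72.0 CPM in cko a and b, against 99.3, 87.6 and 113 CPM in controls a, b and c (-0.40, SE 0.19, adjusted p = 0.477). The 3 genes were 17.6% of complex V, against 13.7% of all genes lower without overlap. The 10 complex V genes not described here by value overlapped between groups.

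Levels of different genes were compared as CPM per kb of the principal transcript. The median over the 83 members was 151 CPM per kb in the cko libraries and 202 CPM per kb in the controls. Complex V had the highest medians, with 260 CPM per kb in the cko libraries and 338 in the controls, followed by complex IV with 224 in the cko libraries and 309 in the controls. Complex III had medians of 166 CPM per kb in the cko libraries and 213 in the controls, complex I of 114 in the cko libraries and 162 in the controls, and complex II of 112 in the cko libraries and 145 in the controls. The order of the complexes was the same in both groups. Atp5b led with 907 CPM per kb in the cko libraries and 1159 in the controls, ahead of Cox8a with 854 in the cko libraries and 1094 in the controls. Uqcrh led complex III with 282 CPM per kb in the cko libraries and 415 in the controls. In complex II, Sdhd was first in the cko libraries at 147 CPM per kb, and Sdhb was first in the controls at 227 CPM per kb, with Sdhc the lowest in both (21.3 in the cko libraries and 33.0 in the controls).

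**Figure D4:**
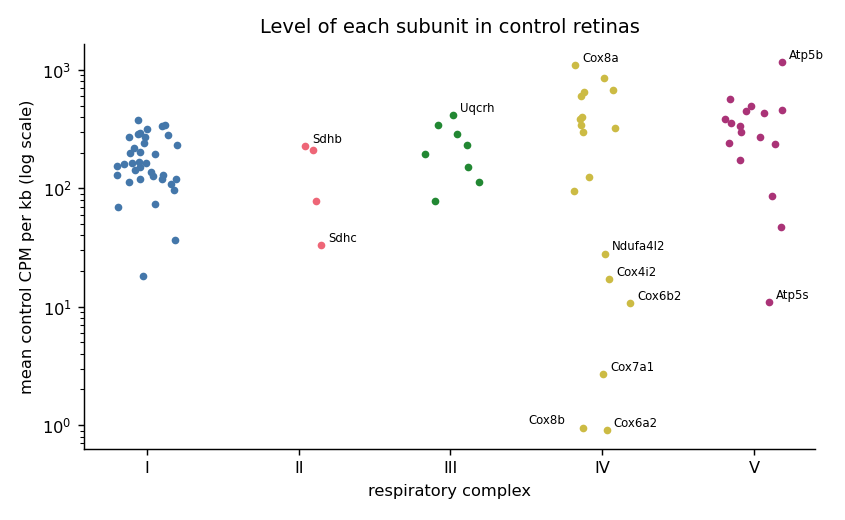
Each point is a tested member, by complex on the x axis; the y axis, on a log scale, is its mean CPM per kb of principal transcript over the 3 controls. Most members lie near the median of 202 CPM per kb, from Atp5b (1159) and Cox8a (1094) down to the muscle isoforms Cox8b (0.952) and Cox6a2 (0.903).

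Short genes as a whole tended towards lower values in the cko libraries. Across 16911 genes tested, the log2 fold change had a Spearman rho of 0.29 with exon length and of -0.29 with GC content; these are correlations across genes, which share the same 5 libraries. The members had a median exon length of 1569 bases, against 4024 over all genes, and a median GC content of 50.3%, against 49.7%. Within the 83 members the rho was 0.11 with exon length and 0.01 with GC content. With the trend on length and GC removed, the median over members was -0.26 and 68 of 83 were below 0. At an unadjusted edgeR p under 0.05, 18 members were lower in that fit (21.7%, against 5.62% of all genes). In the main fit 13 were lower (15.7%, against 5.36%). The part of transcript length in the remaining difference was not tested.

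Other genes of mitochondrial metabolism were set beside the members, and none of their lists held a gene called at an adjusted p under 0.05. Of 45 assembly factors tested, which build the complexes without staying in them, 26 were below 0 and the median was -0.03. At an unadjusted edgeR p under 0.05, 4 were lower (8.89%, against 5.36% of all genes). At that threshold 1 was higher (2.22%, against 5.45%). Both cko libraries lay below all controls for 5 of the 45 (11.1%, against 13.7% of all genes). They lay above all controls for 9 of the 45, against 15.8% of all genes. Cox15, needed to make the haem of complex IV, was at 65.7 and 55.1 CPM in cko a and b, against 36.4, 45.1 and 26.4 CPM in controls a, b and c (0.75, SE 0.24, adjusted p = 0.433). It lay above every control in both cko libraries, and control c, the highest library for most members, was its lowest. Cox14, the most abundant assembly factor per kb of exon in both groups, was at 100.3 and 91.4 CPM in cko a and b, against 143, 102 and 178 CPM in controls a, b and c, also without overlap (-0.56, adjusted p = 0.448).

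The 13 subunits encoded by mitochondrial DNA were below 0 in 12 cases, with a median of -0.26. Their summed level was 33337 and 23660 CPM in cko a and b, against 33056, 28746 and 44640 CPM in controls a, b and c, so cko a was as high as control a. No gene of this list was free of overlap, against 13.7% of all genes lower and 15.8% higher without overlap. The gene of the list with the smallest p, mt-Nd3, was at 21.4 and 15.9 CPM in cko a and b. In controls a, b and c it was at 32.3, 21.4 and 77.1 CPM (-1.22, SE 0.45, edgeR adjusted p = 0.433). The most abundant, mt-Co1, had a log2 fold change of -0.38 (adjusted p = 0.664).

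The electron carriers Etfb, Cycs and Cyc1 had log2 fold changes of -0.46, -0.29 and -0.24, and all 5 genes of their list were below 0 (median -0.24). Genes of the TCA cycle, which supplies NADH and succinate, had a median of -0.08, with 11 of 16 below 0 and Suclg1 at -0.44. Coenzyme Q synthesis genes had a median of 0.04, with 6 of 13 below 0 and Coq7 at -0.44. Carriers and porins had a median of -0.14, with 7 of 8 below 0, Vdac3 at -0.44 and the most abundant, Slc25a4, at -0.14. Regulators of mitochondrial biogenesis had a median of -0.07, with 10 of 17 below 0. Among them Esrra, a nuclear receptor that drives respiratory genes, was at 15 and 15.9 CPM in cko a and b, against 27.3, 20.6 and 26.3 CPM in controls a, b and c, without overlap (-0.68, SE 0.23, adjusted p = 0.433). Clpp, the most abundant regulator per kb of exon in both groups, was at -0.14 (adjusted p = 0.774). Both cko libraries lay below all controls for 4 of the 17 regulators (23.5%, against 13.7% of all genes). They lay above all controls for 2, Ppargc1a (0.36) and Gabpb1 (0.18), against 15.8% of all genes. Of the factors whose letters were searched in the promoters, Nrf1 was at 0.20, Gabpa at 0.22 and Yy1 at -0.35. The medians of the lists were not tested against that of the members.

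**Figure D5:**
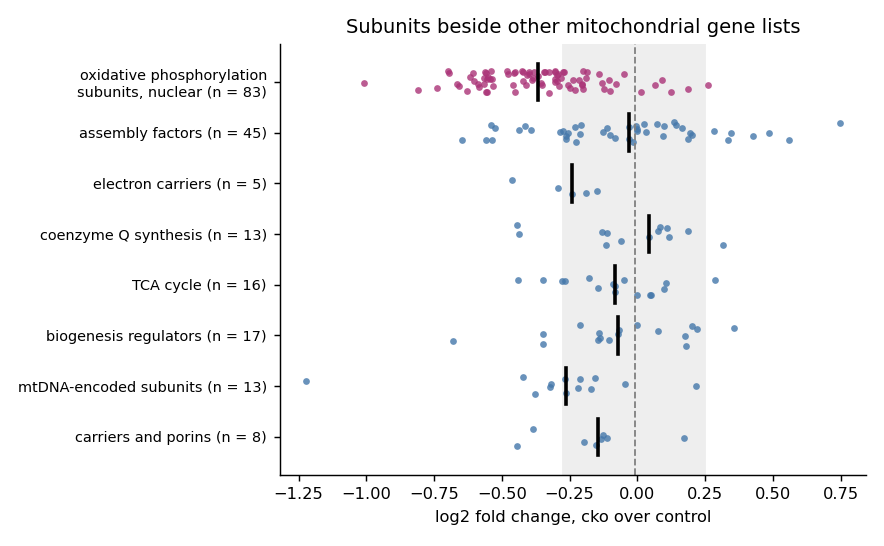
Each point is a tested gene, by list down the page with the nuclear-encoded subunits on top; the x axis is the log2 fold change of cko over control, black bars are list medians, the dashed line is the median of all genes tested and the grey band their interquartile range. The subunits have a median of -0.37, the subunits of mitochondrial DNA -0.26, the assembly factors -0.03 and coenzyme Q synthesis 0.04.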

How the data were processed

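The deposited table holds raw read counts per Ensembl gene for 5 libraries, whole numbers with no normalization by the authors. Per the labels' protocols, TRIzol was used for extraction and a NEBNext Ultra kit for the libraries; per the submitters' processing notes, CASAVA, HISAT2, featureCounts and mm10 were used. Tool versions, the annotation, strandedness and the handling of multi-mapped reads were not given in the sources used here, so overlapping genes cannot be separated, and subunits with processed pseudogenes may share or lose reads.

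Symbols matched 42462 of 43432 IDs. Coordinates and transcript lengths come from GENCODE M21 on GRCm38, the assembly mm10 denotes; motif letters were searched on both strands. The members and gene lists were chosen with earlier results of these data known. Groups were compared with edgeR 4.0.16 in R 4.3.3 (TMM scaling, filterByExpr with a minimum count of 10, quasi-likelihood test), with Benjamini-Hochberg adjustment over all 17039 genes tested and calls at an adjusted p under 0.05; the biological coefficient of variation was 0.216. CPM used the scaled library sizes, and differences of log2 CPM a prior count of 2. SE was the log2 fold change divided by the root of the F statistic. The procedure was tested on simulated data. No 2 libraries were alike within sampling noise (chi-square per degree of freedom at least 26.7).

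Members named were, in each complex, the most abundant per kb of exon, the catalytic subunits, those of smallest p in each direction, and the tissue isoforms with their partners; in other lists, the gene of smallest p and the most abundant. A few genes this rule names are not reported here. Alternatives were other scalings, filters and tests (DESeq2 1.42.0, limma-voom 3.58.1), a replicate block, sex as a covariate, removal of a GC and length trend, and leaving out each library.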

Additional observations from a re-analysis of the deposited data

How the results depend on the processing

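The direction of the members was kept under every alternative run: their median log2 fold change, -0.37, ranged from -0.52 to -0.22, and the number below 0, 77 of 83, from 68 to 80. The number called was 0 except with no filter on low counts, where it was 1. The 13 members lower at an unadjusted p under 0.05 became 30 of 85 (35.3%, against 5.39% of all genes) with no filter on low counts. The number was 22 of 85 (25.9%, against 3.72%) with DESeq2 and 6 of 83 (7.23%, against 5.33%) with sex as a covariate. With each control left out in turn, it was 3 (without control c) to 45 (without control b). Over the whole table, the 17 calls became 11 with library totals as scaling, 262 with no filter, 85 with DESeq2, 9 with sex as a covariate, 1 with mitochondrial, crystallin and globin genes left out, 11 at an adjusted p under 0.01, and 10 to 38 when each library was left out. The 2 groups share the letters a and b, and the labels tie no letter to a litter or batch. Deviations of same-letter libraries from their group means had correlations of -0.00676 and 0.149. The 2 cko libraries deviate from their mean by equal amounts with opposite sign. Different-letter pairs with the same controls therefore gave 0.00676 and -0.149. The values cannot show whether a letter marks a batch. With a replicate block the table gave 39 calls, the members' median was -0.22, and 6 members changed sign. Among them were Atp5a1 (-0.02), Cox6b2 (-0.07) and Ndufs1 (0.05).

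Other alternatives also changed signs. With the GC and length trend removed, 9 members below 0 came to lie above it, among them Atp5g2 (0.14), Cox4i1 (0.08), Cox6a1 (0.36), Cox8a (0.02), Ndufs3 (0.05), Ndufs7 (0.09) and Uqcr11 (0.01). Leaving out each library gave ranges of -0.19 to 0.19 for Atp5a1, -0.31 to 0.03 for Cox6a1, -0.10 to 0.26 for Cox6b2, -0.09 to 0.47 for Cox7a1, -0.97 to 0.02 for Ndufa4l2, -0.35 to 0.11 for Ndufs1, -0.26 to 0.04 for Ndufs3 and -0.16 to 0.25 for Uqcrfs1. The causes were not tested. Depth limits only the tissue isoforms with few reads; for the other members the spread between the 5 libraries sets the precision.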
